A study of Mus musculus with 6 samples.

Results

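The Mediator complex was followed across 3 states of a mouse pre-B cell line through the array probes of its subunits and of its CDK8 kinase module. Members were all non-control probes whose gene name is Med followed by a number, with or without a final l, or is Cdk8, Cdk19 or Ccnc. The rule used names alone and found 55 of the 55681 different probes on the array, for 33 genes. Of these genes, 16 have 1 probe, 13 have 2, 3 have 3 and 1, Med1, has 4, so probes of a gene are repeated looks at 1 transcript family and not replicates.

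All groups were made from 1 cell line, 1676, which lacks the adaptor proteins SLP-65 and LAT (SLP-65-/- LAT-/-), grows as pre-B cells in IL-7 and was kept in IL-7 here. Cells were infected with a retroviral vector and selected with puromycin. The control group carried the empty vector, the miR-26a group a vector encoding hsa-miR-26a-2, and the sponge group a vector whose transcript sequesters members of the miR-26 family. Each group was measured on 2 single-colour arrays, 1 from each of 2 experiments, and no array with a scrambled sponge was analysed here. The comparisons ask which transcripts move when miR-26 is in excess and when it is withheld. The age and sex of the mice behind the line are not given in the sources used here.

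Mediator is a large assembly that bridges DNA-bound transcription factors and RNA polymerase II. Its head and middle modules contact the polymerase, MED14 forms the backbone, and the tail meets activators. A separate kinase module of CDK8 or its paralog CDK19, cyclin C, MED12 or MED12L, and MED13 or MED13L binds the core reversibly and then keeps the polymerase away, while its kinase acts on transcription factors and on the polymerase machinery. In B cells as elsewhere, Mediator serves enhancers and promoters of highly expressed genes. A microRNA such as miR-26a lowers transcripts through its seed, the bases 2 to 8 of the mature strand, which pair with sites that lie mostly in 3′ untranslated regions.

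The mature sequences of the mouse miR-26 family are given because the overexpressed miRNA and those the sponge binds share a seed, shown in capitals (RefSeq, GRCm38.p6, 5′ to 3′). The strand miR-26a-5p comes from Mir26a-1 at chr9:119031811-119031832 and from Mir26a-2 at chr10:126995543-126995564, and miR-26b-5p from Mir26b at chr1:74394324-74394344, each on the plus strand.
mmu-miR-26a-5p: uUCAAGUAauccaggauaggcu
mmu-miR-26b-5p: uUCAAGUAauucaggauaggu

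Expression was read by DNA probes of 60 bases. The following 4 are shown because each detects a member that passed a test below or came close to it, and because each keeps at least 1 reading frame free of stop codons over its whole length. They are the Cdk8 probe A_52_P504068 (mm9 chr5:147043316-147043375, plus strand, from base 65 of its transcript), the Med10 probe A_55_P2108334 (mm9 chr13:69948828-69948887, plus strand, from base 68), the Med7 probe A_55_P1960281 (mm9 chr11:46254543-46254602, plus strand, from base 879) and the Med13l probe A_51_P457358 (mm9 chr5:119207100-119207158, plus strand, from base 6139).
Cdk8: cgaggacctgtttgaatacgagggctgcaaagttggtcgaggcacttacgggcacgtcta
Med10: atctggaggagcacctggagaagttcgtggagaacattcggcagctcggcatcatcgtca
Med7: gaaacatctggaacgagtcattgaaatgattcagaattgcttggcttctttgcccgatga
Med13l: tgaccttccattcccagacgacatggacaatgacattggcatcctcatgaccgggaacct

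Words complementary to the miR-26 seed were sought in the probes on the transcript strand. The 6-letter word ACTTGA was in 0 of the 55 members and in 1091 of all 55681 probes, 1.96%. The longer words that contain it, TACTTGA (0.431% of all probes), ACTTGAA (0.7%) and TACTTGAA (0.174%), were likewise in 0 members. A probe covers only a short stretch of a transcript, so these counts say nothing of sites elsewhere in the transcripts, which were not analysed here.

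Signals are given as log2 of the quantile-normalized processed signal, in which a difference of 1 is a doubling. Such values compare arrays for 1 probe and do not compare probes with each other. The scanner software called 51 of the 55 member probes well above background on every array and 3 on none. To be tested, a probe had to reach that call on 1 array or more and to exceed a processed signal of 50 on 4 or more of the 6 arrays. This left 49 member probes of 31 genes, among 20168 probes in all. The 6 untested were both probes of Med12l, the only probe of Med13, and 1 further probe each of Med8, Med21 and Med28. Changes come from a limma model of the 6 arrays with a term for each group and each experiment (the block), and p-values were adjusted by Benjamini and Hochberg over the 20168 probes. The 95% intervals are not adjusted for the number of probes, and with 2 arrays a group they span a median of 0.19 to each side. In bulk RNA, fewer cells of a type and less RNA per cell cannot be told apart.

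The libraries fitted their labels as pre-B cells. All 8 pre-B markers given here (Cd79a, Cd79b, Vpreb1, Igll1, Il7r, Pax5, Ebf1 and Rag1) had a probe well above background on the 6 arrays, with a summed signal from 413500 to 461000. Rag1, a subunit gene of the recombinase, moved with the miR-26a group, as A_51_P232411 read 9.39 and 9.70 in control, 6.56 and 7.61 in miR-26a and 9.31 and 9.58 in sponge cells. Its dimmer probe A_55_P2043297, above background on 5 arrays, read 5.31 and 5.22, 2.34 and 3.68, and 4.57 and 5.51. Of 3 T cell genes, Cd3g was below background everywhere and only Cd3e was above it on all arrays (sums of 565.3 and 515.4 in control, 470.6 and 564.3 in miR-26a and 438 and 459.8 in sponge cells, the sponge arrays being lowest). The erythroid genes Klf1 and Epor were dim but above background on all arrays, with sums of 39.25 and 44 in control, 53.89 and 45.17 in miR-26a and 51.33 and 48.36 in sponge cells, so the control arrays lay lowest. Of 4 myeloid genes, Csf1r and Itgam were above background on all arrays, with sums of 3223 and 4350 in control, 3540 and 4234 in miR-26a and 2694 and 4167 in sponge arrays, so these sums overlapped. Sums take the brightest probe of each gene. The Itgam probe A_55_P1977934 overlapped between groups, but A_55_P1977929 read 7.77 and 7.83 in control, 6.95 and 7.0 in miR-26a and 7.18 and 7.40 in sponge cells. The Csf1r probe A_55_P2025078 read 8.18 and 7.95, 8.20 and 7.85, and 7.21 and 7.53 in the same order, lowest in the sponge. The part of Rag1 and of these cell types in the results below was not tested. Blnk, which encodes SLP-65, and Lat were above background on all arrays, but the deleted exons are not given in the sources used here, so these probes do not check the knockouts. The Blnk probe read 15.37 and 15.60 in control, 14.88 and 15.09 in miR-26a and 15.60 and 15.59 in sponge cells, while the groups overlapped for Lat. The part of Blnk in the results below was not tested. Between 28823 and 29800 of 59305 spots per array were well above background, 0 were saturated, and replicates of a group correlated at 0.9957 to 0.9974.

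Under miR-26a overexpression, most Mediator transcripts lay close to control, while those of 2 subunits fell. These were Cdk8, the kinase of the dissociable module, and Med10, a small subunit of the middle module. Of the 49 tested probes, 4 were lower at an adjusted p under 0.05, 2 of Cdk8 and 2 of Med10, which is 8.16% of the members beside 5.14% of all probes tested. The member share lies near that of the whole array. In the other direction 0 members were higher, beside 4.53% of all probes. At an unadjusted p under 0.05 in limma, 7 members were lower and 3 higher, 14.3% and 6.12% beside 12.9% and 14.3% of all probes. The median log2 change of the members was -0.04, beside 0.01 over all probes, with 29 probes below and 20 above 0 and 39 within 0.2 of 0. The medians were -0.04 in experiment 1 and -0.03 in experiment 2.

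**Figure D1:**
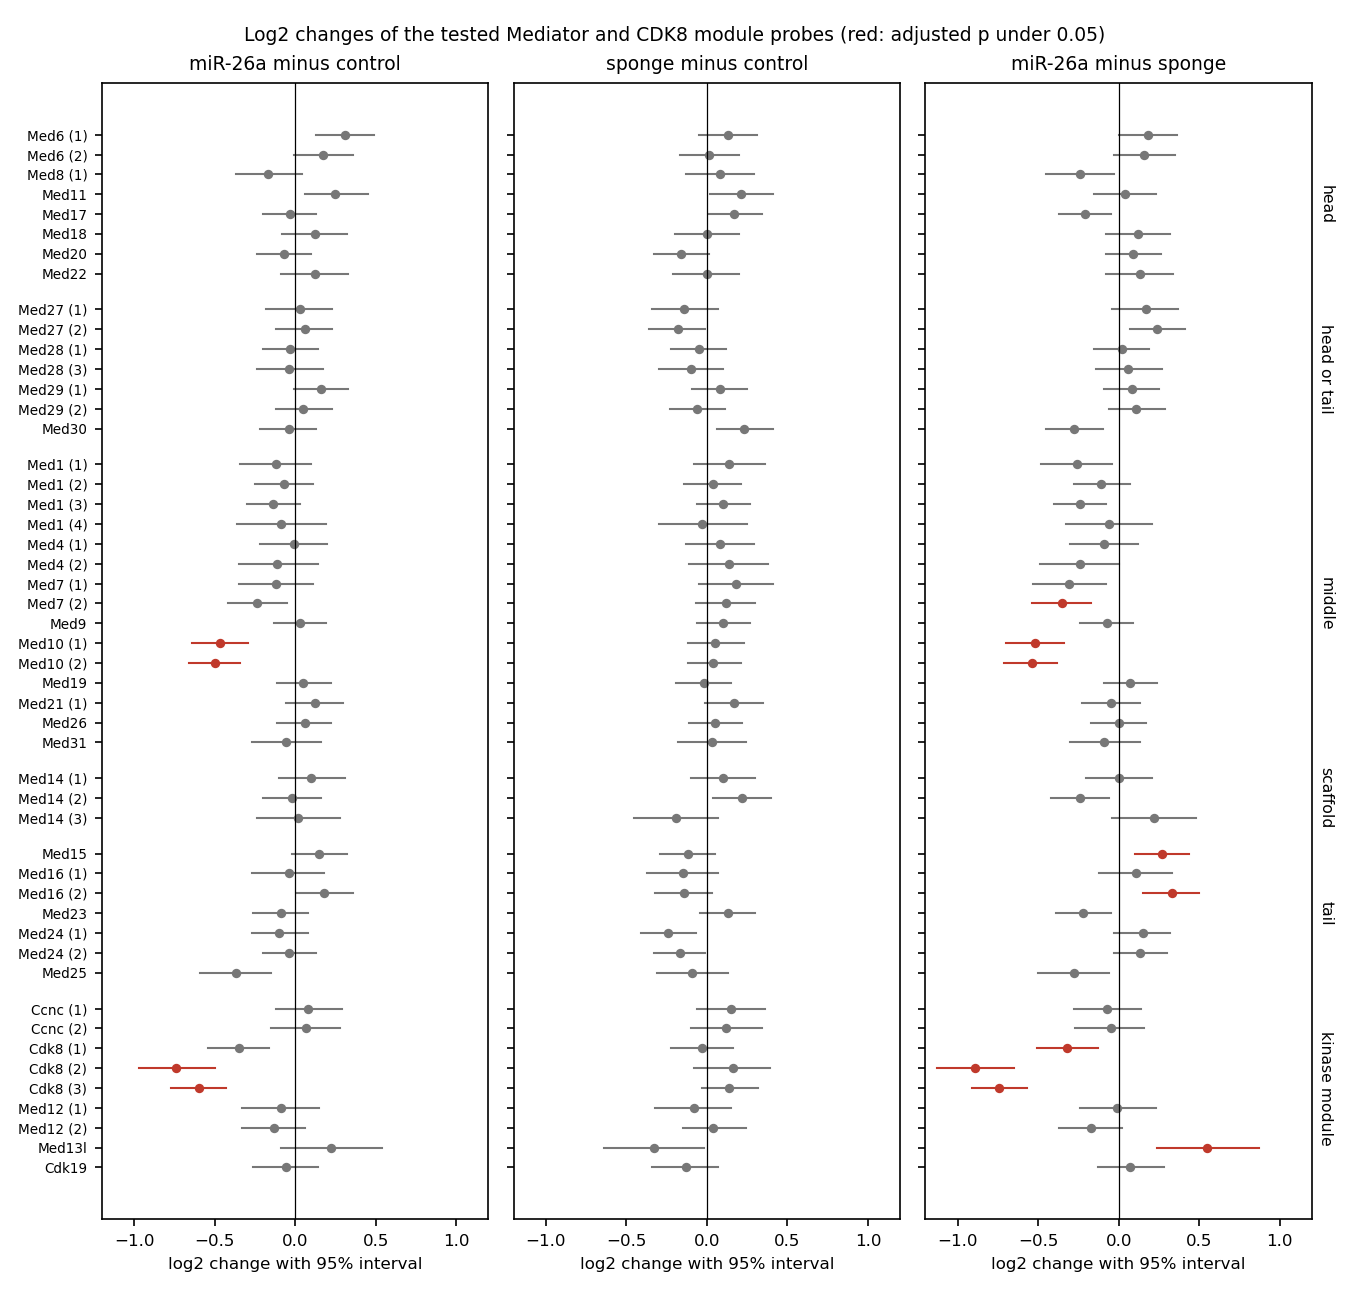
Log2 change of each of the 49 tested probes in the 3 comparisons (points, with 95% intervals as lines), grouped by module from head to kinase module; numbers after a gene name count its probes in the order of their names. Red points have an adjusted p under 0.05: 4 in miR-26a minus control, 0 in sponge minus control and 9 in miR-26a minus sponge.

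Cdk8 is covered by 3 probes on chromosome 5, 1 near the start of the transcript and 2 near its end. The probe with the greatest fall of all members, A_55_P2034400 (mm9 chr5:147114292-147114351, from base 2427), read 11.54 and 11.42 on the control arrays, 10.83 and 10.65 on the miR-26a arrays and 11.84 and 11.42 on the sponge arrays. Both miR-26a arrays lay below all 4 others. The log2 change against control was -0.74 (SE 0.095, adjusted p = 0.0135), to 0.601 of the control level. It was -0.71 in experiment 1 and -0.76 in experiment 2.

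The neighbouring probe A_55_P2185548 (mm9 chr5:147114021-147114080, from base 2156) read 12.50 and 12.45 in control, 11.90 and 11.85 in miR-26a and 12.59 and 12.64 in sponge cells. Here too the miR-26a arrays lay below all others, and the spread within groups was small (SD 0.036, 0.038 and 0.034, n = 2 each). The change was -0.60 (SE 0.069, adjusted p = 0.0104), and -0.60 in each experiment. The probe near the transcript start, A_52_P504068, whose sequence is given above, read 8.02 and 7.94 in control, 7.65 and 7.62 in miR-26a and 7.90 and 8.0 in sponge cells. It also separated the miR-26a arrays from the rest, but its difference of -0.35 (95% interval -0.54 to -0.16) missed the threshold with an adjusted p of 0.0502. With the signals averaged over the 3 probes, the change of Cdk8 was -0.56 (SE 0.058, limma adjusted p = 0.0102).

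Med10 is covered by 2 probes on chromosome 13. A_55_P2108334, shown above, lies near the transcript start and read 12.67 and 12.65 in control, 12.16 and 12.16 in miR-26a and 12.72 and 12.68 in sponge cells. The change was -0.50 (SE 0.066, adjusted p = 0.0141), to 0.708 of the control level. A_55_P2026889 (mm9 chr13:69954922-69954978, from base 4140 of a cDNA that the array design describes as having an apparent retained intron) read 13.18 and 13.22, 12.71 and 12.76, and 13.29 and 13.22 in the same order. Its change was -0.47 (SE 0.071, adjusted p = 0.0198). Both Med10 probes were thus lower on each miR-26a array than on any control or sponge array, by nearly the same amount in each experiment (-0.51 and -0.49 for the first, -0.47 and -0.46 for the second).

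Cdk8 and Med10 also stand among the genes that the study listed from these same arrays as putative miR-26 targets, so their fall here is not independent evidence. A listed gene also had to be predicted as a target by at least 2 of 4 algorithms. Those predictions were not examined here. The 4 calls rest on both control arrays and on the block by experiment. When control replicate 1 or control replicate 2 was left out, 0 members passed, although the 4 changes stayed between -0.82 and -0.44. Without the block, 2 of the 4 passed, and the adjusted p of the others became 0.0934 (Cdk8, A_55_P2034400) and 0.0583 (Med10, A_55_P2026889).

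**Figure D2:**
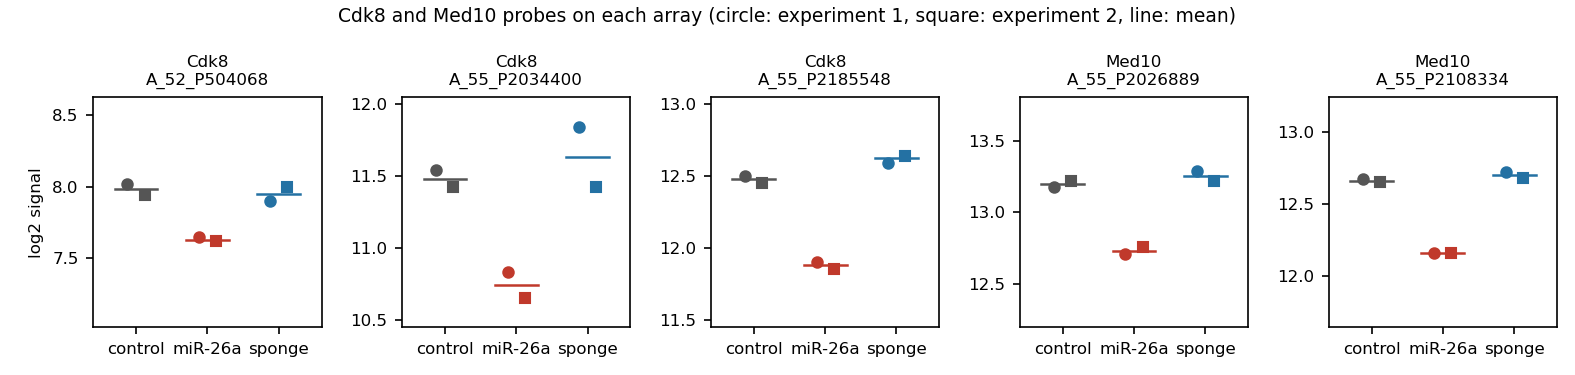
Log2 signal of the 3 Cdk8 and 2 Med10 probes on each of the 6 arrays, by group, with a line at the mean of each group (circle for experiment 1, square for experiment 2; each panel has its own range). In every panel both miR-26a arrays lie below the control and sponge arrays, as for A_55_P2185548 at 11.90 and 11.85 against 12.45 to 12.64.

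The partners of Cdk8 in the kinase module moved less under miR-26a, and 0 of the tested probes of Ccnc, Cdk19, Med12 and Med13l passed. Cyclin C, which activates CDK8 and CDK19, is covered by 2 probes. A_55_P1987504 read 8.30 and 8.04 in control, 8.34 and 8.17 in miR-26a and 8.53 and 8.11 in sponge cells. A_55_P2236607 read 8.55 and 8.46, 8.62 and 8.52, and 8.79 and 8.46. All groups overlapped for both, and the log2 differences between miR-26a and control were 0.08 (95% interval -0.12 to 0.29) and 0.07 (-0.15 to 0.28).

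Cdk19, the paralog that can take the place of Cdk8, read 12.19 and 12.22 in control, 12.06 and 12.23 in miR-26a and 11.94 and 12.20 in sponge cells (A_51_P158388). The groups overlapped, and the difference of -0.06 had a 95% interval from -0.26 to 0.14, which leaves out a fall of the size seen at the later Cdk8 probes. Med12, which links cyclin C and CDK8 to the rest of the module, is covered by 2 probes. A_52_P197666 read 11.61 and 11.80, 11.56 and 11.67, and 11.41 and 11.83 in control, miR-26a and sponge cells. A_55_P2108324 read 7.89 and 8.12, 7.77 and 7.98, and 8.03 and 8.07. Control and miR-26a overlapped at both probes, while at the second both miR-26a values lay below both sponge values. The differences were -0.09 and -0.13 between miR-26a and control (adjusted p = 0.609 and 0.350).

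MED13 and MED13L tether the kinase module to core Mediator. The only Med13 probe, A_52_P515826 (mm9 chr11:86080253-86080312, minus strand), was well above background on all 6 arrays but its processed signal did not pass 50 on any, so it had no test. It read 5.22 and 5.38 in control, 4.95 and 5.15 in miR-26a and 5.06 and 5.29 in sponge cells. The miR-26a values lay below both control values, by 0.27 and 0.23 within the experiments, and overlapped with the sponge. The Med13l probe shown above read 7.47 and 7.53 in control, 7.67 and 7.78 in miR-26a and 7.35 and 6.99 in sponge cells, an order of sponge, control and miR-26a without overlap. Its difference between miR-26a and control was 0.22 (SE 0.125, adjusted p = 0.321), with the widest error among the tested members. Both probes of Med12l, the paralog of Med12, were not well above background on any array and had values from 1.29 to 3.34.

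**Figure D3:**
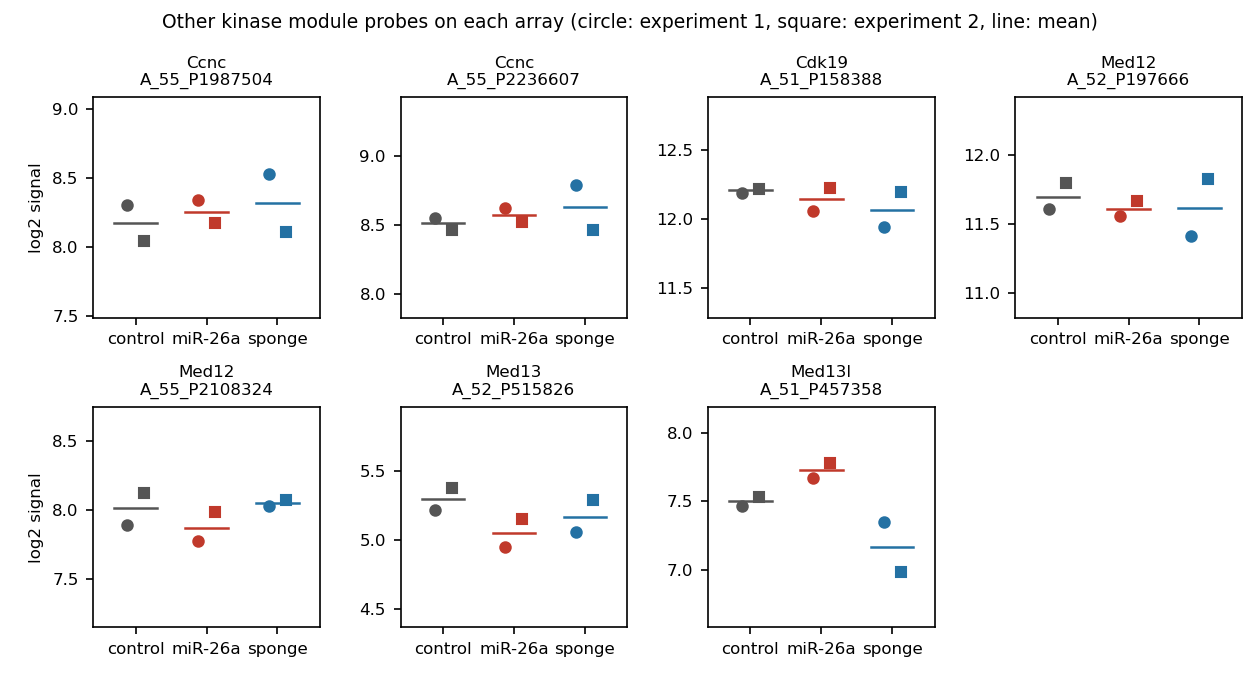
Log2 signal of the probes of Ccnc, Cdk19, Med12, Med13 and Med13l on each of the 6 arrays, with a line at the mean of each group (circle for experiment 1, square for experiment 2; each panel has its own range). Control and miR-26a arrays overlap in the Ccnc, Cdk19 and Med12 panels, and the Med13l panel runs from 6.99 and 7.35 in the sponge to 7.67 and 7.78 in miR-26a cells.

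In the head module, which docks on the polymerase, 0 of 8 tested probes passed in either direction, with a median log2 difference of 0.12 between miR-26a and control. Its Med6 probe A_55_P2033520 had the highest difference of all members, 0.31 (95% interval 0.13 to 0.49, adjusted p = 0.0584). It read 10.17 and 10.15 in control, 10.41 and 10.53 in miR-26a and 10.29 and 10.29 in sponge cells, with no overlap between groups. The other Med6 probe, A_55_P2033521, showed 0.17 (adjusted p = 0.209). Med11 showed 0.25 (adjusted p = 0.106), and the head probes of Med8, Med17, Med18, Med20 and Med22 lay between -0.17 and 0.12.

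Subunits that accounts place in the head or the tail, Med27, Med28, Med29 and Med30, differed by -0.04 to 0.16 over 7 tested probes, with 0 calls. The scaffold gene Med14 had 3 probes between -0.02 and 0.10, again with 0 calls. In the middle module the 2 Med10 probes were the only ones of 15 to pass, and the median difference was -0.09. Med1, the subunit that binds nuclear receptors, had a group mean slightly below control at all 4 probes (-0.14 to -0.07, limma adjusted p from 0.249 to 0.681). The arrays overlapped at A_52_P176300 and A_55_P2092501, and the latter differed by 0.06 in experiment 1 and -0.23 in experiment 2. Med7, which forms a hinge with Med21, showed -0.24 (adjusted p = 0.107) at A_55_P1960281 and -0.12 (adjusted p = 0.460) at A_52_P327467.

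In the tail, 0 of 7 probes passed, and the median was -0.04. Med25, a subunit that binds activators, came nearest and passed only with normexp background correction among the alternatives run, with a difference of -0.37 (SE 0.089, adjusted p = 0.0598) that was -0.23 in experiment 1 and -0.51 in experiment 2. Its signals were 11.05 and 11.27 in control, 10.82 and 10.76 in miR-26a and 11.05 and 11.09 in sponge cells. The miR-26a arrays lay below the 4 others, but the 2 control arrays differed from each other by more than those of either other group. The probes of Med16 disagreed in sign, with 0.18 (adjusted p = 0.172) at A_55_P1967618 and -0.04 (adjusted p = 0.807) at A_55_P1967617. Over all modules, the miR-26a arrays lay wholly below the control arrays for 14 of the 49 tested member probes and wholly above for 11. These counts are to be read against 22.8% and 26.5% of all tested probes.

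**Figure D4:**
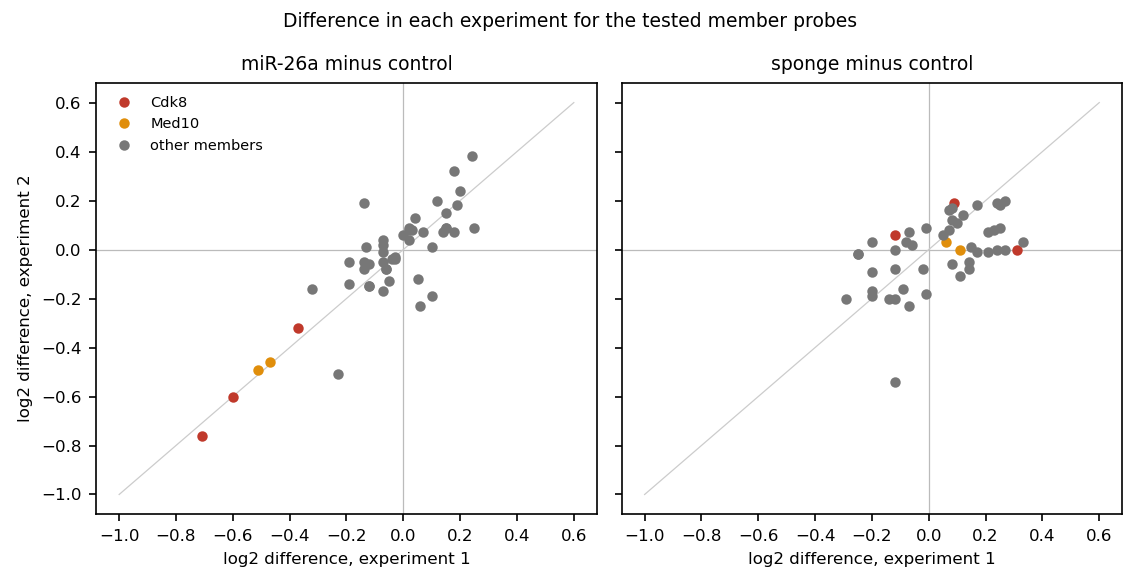
Log2 difference from the control array of the same experiment for each of the 49 tested probes, experiment 1 on the x axis and experiment 2 on the y axis, for miR-26a (left) and the sponge (right); the grey diagonal marks equal differences. The Cdk8 probes (red) and Med10 probes (orange) lie near the diagonal at -0.32 to -0.76 on the left, and near 0 on the right, from -0.12 to 0.31.

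With the miR-26 sponge, 0 members were lower and 0 higher than control by limma at an adjusted p under 0.05, beside 0% of all probes lower and 0.00992% higher, so the whole array offered almost no calls to compare with. At an unadjusted p under 0.05, 4 members were lower (Med13l, both probes of Med24 and the Med27 probe A_55_P2147591) and 4 higher (Med11, the Med14 probe A_55_P2163837, Med17 and Med30), 8.16% each beside 8.54% and 7.57% of all probes. The median difference was 0.04, beside 0.01 over all probes, and 44 of 49 probes lay within 0.2 of 0. Both tests run probe by probe without pooling the spread called 0 members, but they called at most 1 probe of the whole array, so that their 0 tells nothing of the members.

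Cdk8 and Med10 were close to control under the sponge. The 3 Cdk8 probes showed differences of -0.03, 0.16 and 0.14 (A_52_P504068, A_55_P2034400 and A_55_P2185548), with 95% intervals of -0.22 to 0.16, -0.08 to 0.39 and -0.03 to 0.32. The Med10 probes showed 0.05 (-0.12 to 0.23) and 0.04 (-0.12 to 0.21). A rise as large as the fall under miR-26a lay outside each of these 5 intervals. The lowest member was Med13l with -0.33 (95% interval -0.64 to -0.02, adjusted p = 0.299), a difference of -0.12 in experiment 1 and -0.54 in experiment 2.

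The highest member under the sponge was Med30, whose probe A_51_P161874 read 12.98 and 12.93 in control, 12.91 and 12.91 in miR-26a and 13.25 and 13.13 in sponge cells. Both sponge arrays exceeded the others, and the difference from control of 0.23 (SE 0.070) had an adjusted p of 0.245. In the tail, whose 7 tested probes come from 5 genes, 6 probes lay below control and 0 were called. Among them were both probes of Med24 at -0.24 and -0.17 (limma adjusted p = 0.238 and 0.302). The tail's median was -0.14, beside 0.01 over all probes. The Med14 probes disagreed in sign, from 0.22 (A_55_P2163837) to -0.19 (A_66_P136955). Sponge arrays lay wholly below control for 10 of the 49 tested member probes and wholly above for 13, beside 20% and 17.6% of all tested probes.

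The direct comparison took the difference between the miR-26a and sponge arrays in the same fit, in which the control arrays add to the estimate of the spread. It called 6 member probes lower in miR-26a cells, 12.2% of the members beside 8.53% of all probes, and 3 higher, 6.12% beside 8.15%. At an unadjusted p under 0.05, 15 were lower and 4 higher, 30.6% and 8.16% beside 16% and 18.5% of all probes. The 6 called lower at the adjusted threshold were all 3 probes of Cdk8, both of Med10 and 1 of Med7. The 3 called higher were Med13l, Med15 and 1 of Med16. The median difference over the members was -0.05, beside 0.02 over all probes, with 26 below and 23 above 0. Each difference here equals the miR-26a change minus the sponge change against control in the same fit, so it is not separate evidence.

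Cdk8 had the greatest difference of all members, -0.89 at A_55_P2034400 (SE 0.095, adjusted p = 0.00604), which is 0.539 of the sponge level. A_55_P2185548 showed -0.74 (SE 0.069, adjusted p = 0.00439) and A_52_P504068 -0.32 (SE 0.077, adjusted p = 0.0456). The last of these calls was lost under 13 of the 15 alternatives, among them the fit without the block (adjusted p = 0.0924). Med10 showed -0.54 at A_55_P2108334 (adjusted p = 0.00854) and -0.52 at A_55_P2026889 (adjusted p = 0.0115). When sponge replicate 1 was left out, 2 Cdk8 probes passed, and when sponge replicate 2 was left out, 1 did.

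The Med7 probe A_55_P1960281 read 10.78 and 10.68 in control, 10.46 and 10.52 in miR-26a and 10.85 and 10.84 in sponge cells. The control lay between, without overlap, and the difference between miR-26a and sponge was -0.35 (SE 0.073, adjusted p = 0.0309, and 0.0682 without the block). This call was lost under 10 of the 15 alternatives. The other Med7 probe, just downstream of A_55_P1960281, showed -0.31 (adjusted p = 0.0776).

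Among the higher members, Med13l showed 0.55 (SE 0.125, adjusted p = 0.0395), 0.32 in experiment 1 and 0.78 in experiment 2. Med15, the tail subunit that meets sterol and SMAD factors, read 11.90 and 11.97 in control, 12.05 and 12.12 in miR-26a and 11.81 and 11.82 in sponge cells (A_55_P1955722, mm9 chr16:17651333-17651392, minus strand). The groups did not overlap, with a difference of 0.27 between miR-26a and sponge (SE 0.067, adjusted p = 0.0493). The Med16 probe A_55_P1967618 (mm9 chr10:79357455-79357514, minus strand) read 11.99 and 11.97, 12.18 and 12.15, and 11.79 and 11.88 in control, miR-26a and sponge cells. Its difference was 0.33 (SE 0.071, adjusted p = 0.0350), while its partner A_55_P1967617 showed 0.11 (adjusted p = 0.452). Of the 15 alternatives, 8 lost the Med13l call, 13 the Med15 call and 11 the Med16 call. These 3 calls were all lost without the block, with adjusted p of 0.0763 for Med13l, 0.118 for Med15 and 0.0760 for Med16. Leaving out either control array lost them too. Of the 49 tested member probes, miR-26a arrays lay wholly below the sponge arrays for 17 and wholly above for 13, beside 23.1% and 27.7% of all tested probes.

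Genes that work next to Mediator were read in the same way. A list of 34 genes held the subunits of RNA polymerase II, TFIIH with its CDK7 kinase, and P-TEFb with related elongation kinases, and 48 of its probes were tested. Under miR-26a, 0 of these 48 were lower and 1 was higher, beside 5.14% and 4.53% of all probes. The higher probe was that of the cyclin T2 gene Ccnt2, whose product activates CDK9, with 0.40 (SE 0.078, adjusted p = 0.0371). It was dim, at 5.84 and 5.79 in control, 6.24 and 6.19 in miR-26a and 5.91 and 6.04 in sponge cells. The list's median was 0.04. With the sponge 0 were called in either direction by limma, beside 0% of all probes lower and 0.00992% higher, with a list median of 0.06. Between miR-26a and the sponge 0 were lower and 3 were higher, beside 8.53% and 8.15% of all probes. The 3 were the TFIIH helicase gene Ercc2 with 0.33 (adjusted p = 0.0347), the TFIIH subunit gene Gtf2h4 with 0.46 (adjusted p = 0.0161) and a probe of the polymerase subunit gene Polr2l with 0.50 (adjusted p = 0.0131). Another Polr2l probe showed 0.14 (adjusted p = 0.230).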

How the data were processed

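RNA of 1676 pre-B cells was labelled with Cy3 and hybridized to 6 Agilent G3 mouse arrays on 1 slide with 1 scan, where the row of an array goes with its replicate number. Experiment and slide row therefore cannot be told apart, in the block or in the differences given for each experiment. Per the labels, the scans were read with Agilent Feature Extraction 10.7.1.1. The authors deposited the intensity of every spot, of which the processed signal was used, and a table of quantile-normalized intensity values on a linear scale, whose log2 values correlated at 1 (to 4 decimals) with those used here. The number of arrays limits the precision.

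Here, log2 processed signals were averaged over the spots of a probe, without control spots and flagged outliers, and quantile-normalized. Probes were tested if they were called well above background on 1 array or more and had a signal over 50 on 4 or more, a number that the methods give unclearly, with limma 3.58.1 in R 4.3.3 (lmFit and eBayes, two-sided), Benjamini-Hochberg adjustment and a threshold of 0.05. The experiment, taken from the replicate number, was a block, because the methods normalize to the control of each experiment. Deviations from the group means correlated between arrays of equal number at 0.38 (control and miR-26a), 0.59 (control and sponge) and 0.45 (miR-26a and sponge) across probes. The titles of the control samples point to other samples, so these arrays may also stand in an earlier series, though they share the slide and scan with the rest. Their pairing rests on the replicate numbers and on the methods, which call the replicates biological.

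Values on each array were given for every member probe called in any comparison, for the kinase module and Med10, and for the lowest and highest member of each comparison, and Med25 was added after its values were seen. Some genes of the cell marker lists are not reported here. The members, modules and gene lists were chosen with earlier results of these data known. Genes and mm9 positions follow the array design, and 4 member probes span an intron. Alternatives were the fit without the block, an unpaired t-test (the methods name no test for the arrays), a test of the 2 log ratios, scaling to the 75th percentile, normexp correction with an offset of 50, the authors' values, 3 other filters, averaging the probes of a gene, and leaving out each array. The fit was also run on data simulated under its own model, which checks the code and tells nothing of the results here. Tables and plots were made with numpy 2.4.6, pandas 2.3.3 and matplotlib 3.10.9.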

Additional observations from a re-analysis of the deposited data

How the results depend on the processing

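The direction of the 4 called changes of Cdk8 and Med10 between miR-26a and control held under all 15 alternatives, with ranges of -0.82 to -0.65 and -0.62 to -0.56 for the Cdk8 probes A_55_P2034400 and A_55_P2185548 and of -0.52 to -0.48 and -0.50 to -0.43 for the Med10 probes A_55_P2108334 and A_55_P2026889; their adjusted p ranged from 0.00219 to 0.394. Alternatives that changed only the block, the test or the filter, or left out a sponge array, kept the same control and miR-26a means. The 4 changes were the same there by construction, so their direction was not tested by these alternatives. The count of 4 lower members became 2 without the replicate block. With the probes of a gene averaged it was 2 of 31 genes, beside 810 of 14879 over all genes. The unpaired t-test, the test of the 2 log ratios and no filter gave 0. Leaving out 1 array gave 0 to 4, with 0 without control replicate 1 or 2 and 3 without miR-26a replicate 1. Normexp gave 5 lower members, with Med25 added, and 1 higher (Med6), and leaving out an array 0 higher. Against the sponge normexp gave 8 lower, with probes of Med14, Med25 and Med30 among them, and 3 higher, with Med27 among them and without Med15. With the authors' values the third Cdk8 probe passed too (adjusted p = 0.04998). Against the sponge, the 6 lower members became 0 with either t-test or no filter and 1 to 4 with an array left out, and the 3 higher ones 0 without the block, with either t-test or no filter, 1 with 75th percentile scaling and 0 to 1 with an array left out. With the probes of a gene averaged, 4 of 31 genes were lower in miR-26a than in sponge cells, with Med30 among them, and 2 higher, without Med16. Over all 14879 genes these counts were 1337 and 1331. The sponge against control gave 0 members in each direction under every alternative run. Over all probes, the 1036 lower and 913 higher calls became 240 and 72 without the block, 147 and 66 or 163 and 70 without control replicate 1 or 2, and 0 with either t-test or no filter. Between miR-26a and the sponge, 1721 and 1644 became 631 and 348 without the block, and 287 and 137 or 291 and 127 without sponge replicate 1 or 2. Without the block, the 6 lower members against the sponge became 4, as the Cdk8 probe A_52_P504068 and the Med7 probe A_55_P1960281 were lost. The causes of these losses were not tested. The median change of the members stayed from -0.04 to -0.01 for miR-26a, 0.01 to 0.09 for the sponge and -0.06 to 0.01 between the 2. Signal over background limits what is known of Med12l, and the signal minimum of 50 left out Med13, which was above background. With no filter all 55 probes were tested and 0 passed in any comparison.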
